A study of Mus musculus with 8 samples.

Results

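The enteroendocrine genes of the mouse colon were examined in chimeric mice grafted with enkephalin-deficient or wild-type bone marrow. The 10 genes, chosen by name, were Chga, Chgb, Tph1, Gcg, Pyy, Insl5, Sst, Cck, Neurod1 and Nts, and all 10 were found among the 26008 genes of the expression table. The chimeras were male C57BL/6JRj mice, lethally irradiated at 7 weeks of age and grafted with marrow from male donors of 9 to 11 weeks. The donors were either penk-/- or wild-type penk+/+. The penk-/- donors were a constitutive proenkephalin knockout of a B6.129 strain, which the paper calls congenic. They were examined 18 to 21 weeks after the graft, and RNA from frozen colonic biopsies of 4 chimeras per genotype was sequenced, with 1 library per mouse. The deletion was carried by blood-derived cells only, and not by all of them. In the paper, most but not all marrow cells came from the donor, as measured in another set of chimeras. Penk mRNA in splenic T cells of penk-/- chimeras was strongly reduced there, but not absent. The hormone-producing cells belong to the epithelium of the host, so that they had an intact Penk gene in both groups, and both groups were irradiated. Libraries are named by genotype and replicate number, for instance penk-/- 3. They contained between 33.1 M and 50.7 M reads assigned to genes, with a median of 37.1 M in penk-/- and 38.9 M in penk+/+ chimeras.

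Enteroendocrine cells are rare epithelial cells that release peptides and amines from secretory granules in response to nutrients, microbial products, irritants and stretch. In the colon, enterochromaffin cells make serotonin and carry chromogranins, whereas L cells make the proglucagon peptides, peptide YY and, in the distal gut, insulin-like peptide 5. D cells make somatostatin. Cholecystokinin and neurotensin are hormones mainly of the small intestine. NeuroD1 is a basic helix-loop-helix transcription factor that acts late in the differentiation of these cells. Serotonin released by enterochromaffin cells acts on sensory and motor nerves of the gut wall, and the study as a whole concerned visceral sensitivity.

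The promoter windows of the 10 genes were read from RefSeq (mouse build GRCm38.p6), taking the 250 bases before each annotated start, and all 10 genes were matched, with 13 windows in all. Letters were searched on both strands for CAGATG, an E-box sequence that NeuroD1 can bind, and for TGACGTCA, the cyclic AMP response element. These letter strings do not overlap each other. TGACGTCA was found in 2 of the 10 genes, Chgb and Sst, against 1.55% of all 32851 RefSeq windows of this length. CAGATG was found in 3 of the 10 genes, Gcg, Insl5 and Cck, against 14.4% of all windows. The 10 genes were counted by a match in any of their windows, whereas these shares are per window, so that the units differ. A match describes the letters and not a site in use. The windows of the 4 well-expressed genes with a match are shown 5′ to 3′ on the strand of the gene, with the matched letters in capitals, to let the position and surroundings of these letters be seen. They lie on chr2:132781392-132781641 (plus strand, Chgb), chr16:23890845-23891094 (minus strand, Sst), chr2:62483654-62483903 (minus strand, Gcg) and chr4:103026729-103026978 (minus strand, Insl5, the more downstream of its annotated starts).
Chgb: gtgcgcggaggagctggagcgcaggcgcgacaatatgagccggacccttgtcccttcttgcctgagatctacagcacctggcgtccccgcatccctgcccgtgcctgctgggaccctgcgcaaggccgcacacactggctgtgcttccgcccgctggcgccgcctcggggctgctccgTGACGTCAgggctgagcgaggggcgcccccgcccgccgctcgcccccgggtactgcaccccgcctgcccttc
Sst: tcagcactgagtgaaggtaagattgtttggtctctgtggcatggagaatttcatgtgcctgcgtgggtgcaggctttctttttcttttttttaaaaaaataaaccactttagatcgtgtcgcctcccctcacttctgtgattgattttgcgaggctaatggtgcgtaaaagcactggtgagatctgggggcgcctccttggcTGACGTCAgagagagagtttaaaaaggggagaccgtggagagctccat
Gcg: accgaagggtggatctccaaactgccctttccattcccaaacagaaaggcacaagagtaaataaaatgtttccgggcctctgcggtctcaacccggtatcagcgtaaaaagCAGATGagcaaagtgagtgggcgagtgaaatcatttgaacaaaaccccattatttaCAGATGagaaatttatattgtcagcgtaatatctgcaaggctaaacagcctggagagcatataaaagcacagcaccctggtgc
Insl5: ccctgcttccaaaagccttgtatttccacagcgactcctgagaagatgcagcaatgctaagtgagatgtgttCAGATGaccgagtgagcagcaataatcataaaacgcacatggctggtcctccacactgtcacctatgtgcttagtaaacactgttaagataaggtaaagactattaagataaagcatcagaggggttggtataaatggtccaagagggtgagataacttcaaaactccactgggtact
Counting from the annotated start, the response element began at position -72 in Chgb and at -48 in Sst. The E-box letters began at -139 and -83 in Gcg and at -178 in Insl5, and those of Cck, not shown, began at -30. The windows of Chga, Tph1, Pyy, Neurod1 and Nts held neither string of letters. Only exact strings were searched, and the Chga window held tgacgtaa, which differs from the response element in a single letter.

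The colon expressed the enterochromaffin and L cell genes strongly, somatostatin and Neurod1 at lower levels, and cholecystokinin and neurotensin hardly at all. Levels of different genes were compared as the normalized count per kilobase of the canonical transcript, over all 8 mice (mean ± SD, n = 8). On this scale Pyy was the highest with 3420.4 ± 304, and its lowest mouse, at 2845, was above the highest mouse of any other gene of the set. Insl5 (1593 ± 198), Chgb (1439.6 ± 186) and Chga (1346 ± 137) came next, and their ranges over the mice overlapped. Gcg had 633 ± 60.1, clearly above Tph1 with 296 ± 27.7, since their ranges did not meet. Sst followed with 87.5 ± 22.0 and Neurod1 with 44.4 ± 5.95, without overlap between the mice on this scale. Nts (5.18 ± 1.95) and Cck (1.32 ± 0.544) were the lowest of the set, with 2 to 9 and 2 to 7 reads per library, and their ranges overlapped. The place of Chga depended on the length used. With the length of all annotated exons its mean was 403, below the 449 of Gcg, because long alternative exons are annotated for it. With that length Sst (mean 41.6) and Neurod1 (mean 39.9) were also close, and their ranges over the mice overlapped. The places of Chga, Sst and Neurod1 in this order are therefore not firm, whereas Pyy was first with both lengths.

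**Figure D1:**
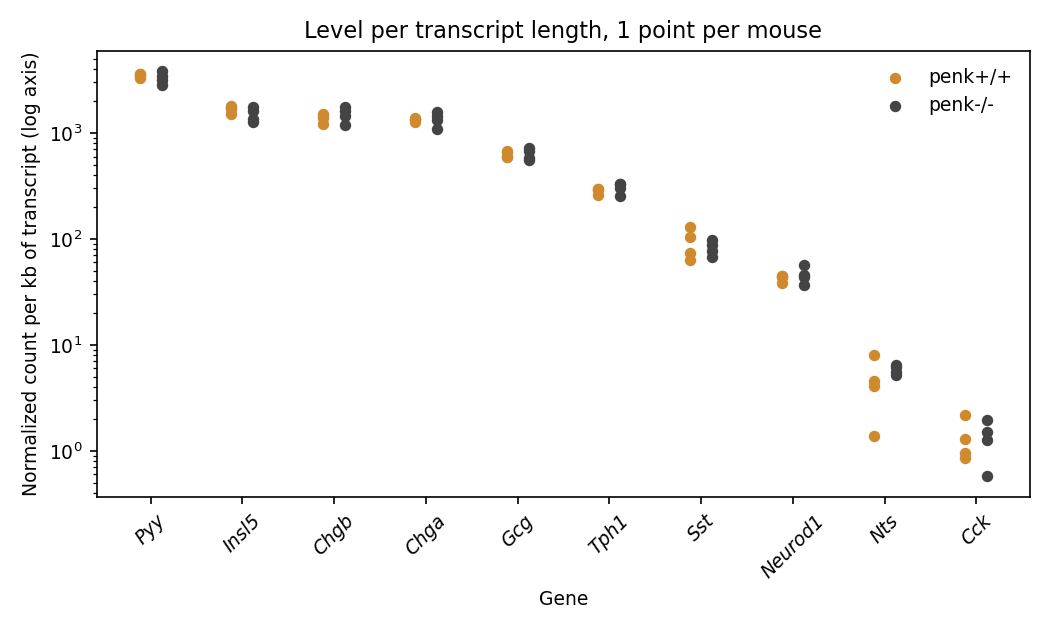
Normalized count per kilobase of canonical transcript on a log axis for the 10 genes, 1 point per mouse, penk+/+ and penk-/- side by side. Pyy sits above 2845 in every mouse, Insl5, Chgb and Chga overlap, and Nts and Cck stay at or below 7.98 and 2.18.

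Whether enkephalin deficiency of the immune cells changed the endocrine genes was asked by comparing the 4 penk-/- with the 4 penk+/+ chimeras. None of the 10 genes passed the test, and for each of them the values of the groups overlapped. Of the 10 genes, 8 reached the filter (mean of 10 normalized counts or more) and were tested among 19127 genes with limma on log2(normalized count + 1). With Benjamini-Hochberg adjustment, 0 of the 8 had an adjusted p below 0.05, and 0 had an unadjusted p below 0.05. Over all genes tested the shares were 0.0% at adjusted p below 0.05 (smallest adjusted p, 0.132) and 9.63% at unadjusted p below 0.05 (4.3% higher and 5.33% lower in penk-/-), so that a count of 0 among 8 genes lies near the background. The groups did not overlap for 5.63% of all genes tested. With DESeq2 on the same libraries, the paper did call a few genes by genotype, so that the absence of calls belongs to limma on normalized values. The median log2 difference of the 8 genes was -0.01, beside 0.01 for all genes tested, with 4 genes higher and 4 lower. The exact permutation tests given below are two-sided, use the 70 assignments of 4 of the 8 mice and cannot give a p below 0.0286. In RNA of whole tissue, fewer endocrine cells and less RNA per cell cannot be told apart.

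**Figure D2:**
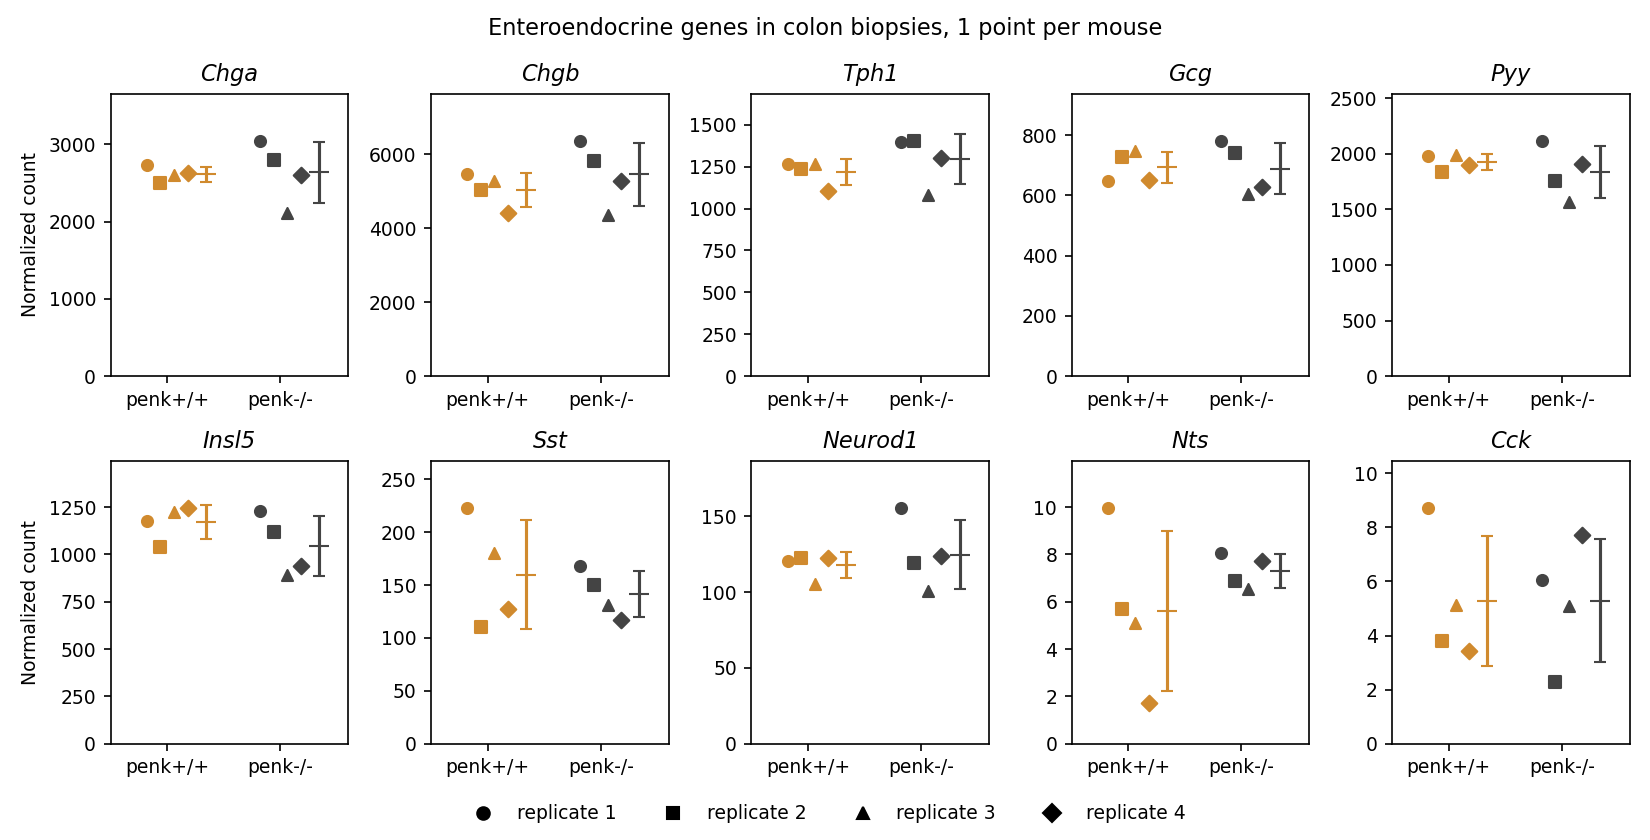
Normalized counts of the 10 genes, 1 panel per gene and 1 point per mouse, with the mean and SD of each genotype. The penk+/+ and penk-/- points overlap in every panel, and penk-/- 3 is the lowest mouse for 7 of the 10 genes.

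Chromogranin A, encoded by Chga (GRCm39 chromosome 12, 102520484 to 102531300, plus strand), is a granule protein used as a general marker of endocrine cells. Its normalized counts were 3049.6, 2796, 2114 and 2599 in penk-/- 1 to 4, and 2728, 2496, 2605 and 2626 in penk+/+ 1 to 4. The penk-/- chimeras held both the highest and the lowest value, with the penk+/+ values in between. Means were 2639.6 ± 396 and 2614 ± 95.1 (n = 4 each, SD), which gave a log2 difference of 0.00 (95% interval -0.23 to 0.23, adjusted p = 0.997 with limma). Chromogranin B (Chgb, chromosome 2, 132622464 to 132637904, plus strand), its companion in the granule, had the highest normalized count of the 10 genes. Its values were 6367, 5826, 4349 and 5274 in penk-/- and 5466, 5023, 5269.8 and 4406 in penk+/+ chimeras. The first pair of penk-/- mice lay above all penk+/+ mice, and penk-/- 3 lay below them. The means of 5454 ± 861 and 5041 ± 461 gave a log2 difference of 0.10 (95% interval -0.16 to 0.37, exact permutation p = 0.457).

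Tryptophan hydroxylase 1, encoded by Tph1 (chromosome 7, 46294065 to 46321965, minus strand), is the rate-limiting enzyme of serotonin synthesis outside the brain. Its normalized counts were 1395.5, 1406, 1081 and 1300.4 in penk-/- and 1268, 1239, 1268 and 1107 in penk+/+ chimeras. Tph1 exceeded every penk+/+ value in 3 penk-/- mice, and penk-/- 3 was the lowest of the 8. The log2 difference was 0.08 ± 0.094 (SE), with a 95% interval from 0.913-fold to 1.22-fold, and the exact permutation p was 0.457. The next enzyme of the pathway, Ddc, averaged 4639 ± 564 in penk-/- mice against 4565 ± 201 in penk+/+ mice (SD, n = 4 each), with a log2 difference of 0.02. The transporter that loads serotonin into granules, Slc18a1, stood apart in a pair of libraries, penk-/- 3 with 353 and penk+/+ 4 with 354, against 206 to 261 in the other 6. Its log2 difference was 0.02. Tac1, the substance P precursor, ranged from 529.9 in penk+/+ 4 to 1186 in penk+/+ 3 and overlapped between the genotypes.

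Slc6a4, the transporter by which epithelial cells take serotonin up again, was at 945, 943, 723 and 1049.6 in penk-/- and 1096, 1191, 1002 and 1307 in penk+/+ chimeras. Only penk-/- 4 reached into the penk+/+ range. The log2 difference was -0.33 ± 0.124 (SE), its unadjusted p was 0.0235 with limma, and its adjusted p was 0.452, so that it did not pass the test. Without penk-/- 3 and penk+/+ 4 the difference was -0.16 (unadjusted p = 0.111), and with the epithelial mean as a covariate it was -0.23 (unadjusted p = 0.0607). Maoa, which degrades serotonin and was the most abundant gene of the receptor and clearance list with a mean of 32269, had a log2 difference of -0.23 (adjusted p = 0.534). Among serotonin receptors, Htr4 ranged from 1209.9 to 1821 and Htr3a from 274 to 743 normalized counts. The highest Htr3a value was that of penk-/- 3, a library in which the neuronal genes were also highest.

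The proglucagon gene Gcg (chromosome 2, 62304873 to 62313997, minus strand) gives the glucagon-like peptides in L cells. Its normalized counts were 782, 742, 604 and 629 in penk-/- and 648, 727, 747 and 651 in penk+/+ chimeras. The penk-/- mice spanned a wider range that enclosed the penk+/+ mice. Means were 689 ± 86.1 and 693 ± 51.3 (n = 4 each, SD), which gave a log2 difference of -0.01 (95% interval -0.24 to 0.21). Its sign turned in 6 of the 19 alternative settings. Pyy (chromosome 11, 101997502 to 101998658, minus strand), coding for a peptide that slows transit and fluid secretion, had 2117.5, 1757, 1565 and 1907 in penk-/- and 1983, 1835, 1986 and 1899 in penk+/+ chimeras. Again the extremes were penk-/- 1 and penk-/- 3. The log2 difference was -0.08 ± 0.090 (SE), with an exact permutation p of 0.514.

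Insl5 (chromosome 4, 102875069 to 102884039, minus strand), a relaxin-family hormone of colonic L cells, showed the genotype difference of the largest size among the 8 tested genes in this comparison. Normalized counts were 1229.9, 1117, 890.4 and 937 in penk-/- and 1177, 1041, 1221 and 1244 in penk+/+ chimeras. The penk-/- 3 and penk-/- 4 mice lay below all penk+/+ mice, and the other 2 lay within their range. The log2 difference was -0.17 ± 0.111 (SE), the 95% interval ran from 0.746-fold to 1.05-fold, and the exact permutation p was 0.229. Without penk-/- 1 the difference was -0.26, with an unadjusted limma p of 0.0320 and an adjusted p of 0.390. Without penk-/- 3 it was -0.10 (unadjusted p = 0.361), and without penk-/- 3 and penk+/+ 4 it was -0.07 (unadjusted p = 0.545). The receptor of Insl5, Rxfp4, was low in this tissue, with 0 to 11.4 normalized counts.

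Somatostatin (Sst, chromosome 16, 23707321 to 23711733, minus strand), which inhibits other endocrine cells, was the most variable of the 8 tested genes. It was counted at 168, 149.97, 132 and 117 in penk-/- and 223, 110.3, 179.9 and 127 in penk+/+ chimeras. The penk+/+ mice alone spanned the highest and the lowest value. Its residual SD on the log2 scale was larger than that of 77.6% of all genes tested, whereas those of the other 7 exceeded 33.1% to 49.5% of them. The log2 difference was -0.13 with a 95% interval from -0.64 to 0.37, the widest of the set. Enteric neurons also make somatostatin, and their share in these counts was not tested.

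Neurod1 (chromosome 2, 79282865 to 79287294, minus strand) was at 155.5, 119, 101 and 124 in penk-/- and 121, 123, 105 and 123 in penk+/+ chimeras. The highest mouse was penk-/- 1, and penk-/- 3 and penk+/+ 3 lay below the other 5, so that the groups overlapped. Its log2 difference was 0.07 (95% interval -0.27 to 0.41, adjusted p = 0.921 with limma). Its locus lies within the annotation of Cerkl on the same strand, which had a mean of 14.3, and it was the only gene of the 10 to overlap another gene of the table. Reads of this pair may not be fully told apart. Cck (chromosome 9, 121315695 to 121324863, minus strand) was at 6.06, 2.29, 5.09 and 7.73 in penk-/- and 8.71, 3.80, 5.11 and 3.43 in penk+/+ chimeras. Nts (chromosome 10, 102317614 to 102326396, minus strand) had 8.08, 6.87, 6.54 and 7.73 in penk-/- and 9.96, 5.71, 5.11 and 1.71 in penk+/+ chimeras. With so few reads the values of both genes are imprecise, and no genotype difference was detected (exact permutation p = 0.943 for Cck and 0.343 for Nts).

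**Figure D3:**
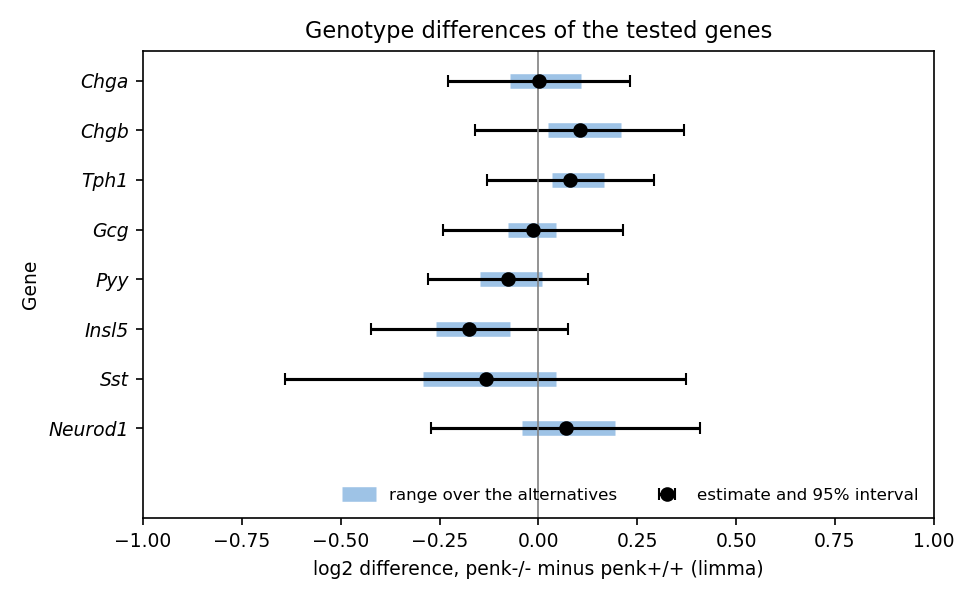
Genotype difference on the log2 scale for the 8 tested genes, with points and bars for the limma estimate and its 95% interval, and blue bands for the range over 19 alternative settings. Every interval includes 0, from the -0.64 lower bound of Sst to the 0.41 upper bound of Neurod1, and the bands of Chgb, Tph1 and Insl5 stay on a single side of 0.

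Enterochromaffin genes were then set against L cell genes within each mouse, as the mean log2 of Tph1 and Chga minus the mean log2 of Gcg, Pyy and Insl5. This balance was 0.70, 0.81, 0.68 and 0.82 in penk-/- and 0.70, 0.66, 0.58 and 0.56 in penk+/+ chimeras. The penk-/- values were the higher ones, but penk-/- 3 lay below penk+/+ 1. The means were 0.75 ± 0.072 and 0.62 ± 0.064 (SD, n = 4 each), a difference of 0.13, given as a description without a test because the genes were chosen with earlier results known. It was made of a difference of 0.04 in the enterochromaffin mean and of -0.09 in the L cell mean, both smaller than the SD of the penk-/- mice. In linear terms, 144 ± 11.04 Chga counts were found per 100 Pyy counts in penk-/- and 136 ± 3.20 in penk+/+ chimeras. There were 70.8 ± 6.28 and 63.4 ± 3.81 Tph1 counts per 100 of Pyy. Within the L cell genes, Insl5 per 100 of Pyy was 56.9 ± 5.96 and 60.8 ± 3.70, and Gcg per 100 of Pyy was 37.7 ± 3.84 and 36.1 ± 3.15. Within the enterochromaffin pair, Tph1 per 100 of Chga was 49.3 ± 2.40 and 46.7 ± 3.33. All these ratios overlapped between the genotypes.

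**Figure D4:**
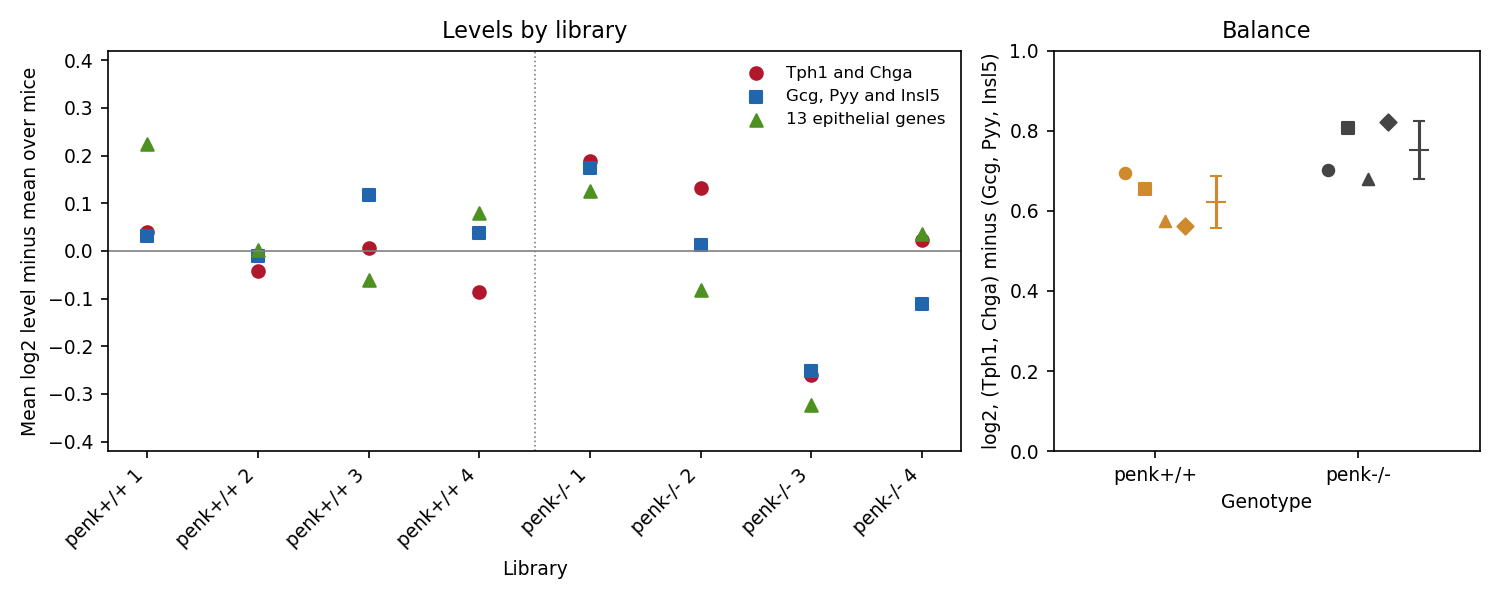
Left, mean log2 level of the enterochromaffin pair, the L cell trio and the epithelial list in each library, minus the mean over the mice; right, the enterochromaffin mean minus the L cell mean by genotype, 1 point per mouse. All 3 levels are lowest in penk-/- 3, and the balance lies between 0.68 and 0.82 in penk-/- and between 0.56 and 0.70 in penk+/+ chimeras.

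The endocrine genes rose and fell together from mouse to mouse. Of the 10 genes, 7 had their lowest value in penk-/- 3 and 5 their highest in penk-/- 1, while 20.3% and 13.05% of all genes tested had theirs there. Pearson correlations over the 8 libraries are given as a description, without p, since all values share the libraries, their normalization and their tissue makeup. All 28 pairs of the 8 tested genes correlated positively, with a median r of 0.59. Without penk-/- 3 the median was 0.45, and 26 of the 28 were positive. The closest pair was Chgb and Tph1, with r = 0.96, and 0.95 without penk-/- 3. The enterochromaffin mean followed the L cell mean with r = 0.76, but with 0.41 without penk-/- 3, so that much of this relation rested on that mouse. Sst and Neurod1 were the least related pair, with r = 0.06.

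The level of epithelial genes in the biopsy moved with some of these values. A list of 13 epithelial genes, led by Lgals4, all of them tested, summed to 694242, 598795, 510696 and 661949 normalized counts in penk-/- 1 to 4 and to 750746, 660173, 634370 and 671953 in penk+/+ 1 to 4. The lowest sum was that of penk-/- 3, the mouse with the lowest endocrine values, and the mean of the list was 0.12 lower on the log2 scale in penk-/- chimeras. Pyy followed the epithelial mean with r = 0.85 over the 8 libraries, and 0.59 without penk-/- 3. The enterochromaffin and L cell means did so with 0.63 and 0.66, and with 0.05 and 0.14 without that mouse. Per 1000 counts of the epithelial list, the 10 endocrine genes together gave 22.0, 23.2, 21.2 and 19.5 counts in penk-/- and 18.2, 19.1, 21.1 and 18.1 in penk+/+ chimeras. The groups overlapped on this scale too. With the epithelial mean as a covariate, the log2 differences were 0.10 for Chga, 0.20 for Chgb, 0.15 for Tph1, 0.01 for Gcg and Pyy, -0.10 for Insl5, -0.04 for Sst and 0.19 for Neurod1, with no gene of the set called. The part of the epithelium in these differences was not tested further.

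The libraries penk-/- 3 and penk+/+ 4 also stood apart from the rest. Pbsn, a secretory gene of the male accessory glands, had 105658 and 111024 normalized counts there, against 0 to 13425 in the other 6. The 7 accessory gland genes found of a list of 10 summed to 228733 and 239552 in this pair and to between 10990.4 and 44386 in the others. Both genotypes held 1 such library. Slc18a1, Piezo2 and Npy were highest in the same pair, with Piezo2 at 1511 and 1789 against 631 to 724 elsewhere. Without this pair, the difference in balance between the genotypes was 0.13 and none of the 8 tested genes was called. In penk-/- 3, the 14 enteric neuron genes (led by Vip) also had their highest sum, 9406 against 6135 to 8253 in the other libraries, and the median log2 difference of the list was -0.04. That of the accessory gland list was -0.10. The part of this pair of libraries in single values was not tested further.

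Markers of cells other than enteroendocrine cells that could hold the same transcripts were examined. Mast cells derive from the grafted marrow and can express Tph1. Of 10 mast cell genes 7 passed the filter, and their summed counts, 2584 to 3782, came mainly from Kit, which pacemaker cells of the muscle also express. Of these 7, 5 were higher and 2 lower in penk-/-, with a median log2 difference of 0.17 and none with an adjusted p below 0.05. The values of Mcpt4 (1.29), Tpsb2 (1.19) and Cpa3 (0.88) were above 0, and those of Cma1 (-0.72) and Kit (-0.07) below it. The defining markers were low: Cpa3 had 4.75 to 44.3 normalized counts, and Fcer1a and Ms4a2 had 0 to 7.73 and 0 to 4.29. The part of mast cells in the Tph1 counts was not tested. Cma1, a chymase on the same list, had 168, 270.2, 320 and 274 in penk-/- and 489, 354, 576 and 292 in penk+/+ chimeras (unadjusted p = 0.0174 and adjusted p = 0.429 with limma). Of the 9 pancreatic genes, Cela1 and Iapp were measured, and the others are not analysed here. Cela1 had a log2 difference of 0.04. Iapp, below the filter with 1 to 6 reads per library, was at 2.02 to 6.87 in penk-/- and 1.02 to 1.90 in penk+/+ chimeras. After scaling, its groups did not overlap (exact permutation p = 0.0286, the smallest possible). In recovered reads, penk-/- 1 tied with penk+/+ 2 and penk+/+ 4, so that the gap came from the size factors. Of all genes tested, which leave out Iapp, 2.89% were higher in penk-/- without overlap. The label of the tissue was also checked with 6 posterior Hox genes, typical of the distal colon. All 6 were tested, with Hoxb13 at 11777 to 14608, and their median log2 difference was -0.04.

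The wider endocrine program was described with lists of genes that overlap in part. The biopsies also held other cells, such as enteric neurons, and the part of these cells in the counts was not tested. Over the 154 tested genes of all lists other than the 10, 10 genes had an unadjusted p below 0.05, that is 6.49%, below the 9.63% of all genes tested, and 0 had an adjusted p below 0.05. Of the 12 enterochromaffin genes 11 were tested, 8 higher and 3 lower in penk-/-, with a median log2 difference of 0.02. Of the 10 L cell genes 8 were tested, and all 8 were lower, with a median of -0.13 and a lowest adjusted p of 0.621. Over all genes tested 9347 of 19127 were lower, and 11 of the 13 epithelial genes were lower too, with a median of -0.15. With the epithelial mean as a covariate Gcg (0.012) and Pyy (0.0089) were no longer lower, whereas Insl5 (-0.10) still was. The other L cell genes are not given with this covariate, and the part of the epithelium in the list was not tested. The L cell list also included Pcsk1, the convertase that cuts proglucagon (log2 difference -0.14), and the fatty acid receptor Ffar4 (-0.11). Neither of these 2 passed the test. Signs of genes within a biopsy are not independent of each other.

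Trpa1, an irritant-sensing cation channel of enterochromaffin cells and sensory nerves, was the gene of the enterochromaffin and sensor lists whose groups did not overlap. It was at 87.9, 83.6, 84.3 and 69.6 in penk-/- and 63.5, 54.2, 61.3 and 58.3 in penk+/+ chimeras. Every penk-/- mouse was above every penk+/+ mouse. The log2 difference was 0.45 ± 0.144 (SE), with an exact permutation p of 0.0286, the smallest possible, but an adjusted p of 0.406 with limma, so that Trpa1 did not pass the test. Among all genes tested, 2.89% were likewise higher in penk-/- without overlap. Of 18 sensor genes found out of 19, 17 were tested, 3 higher and 14 lower, with a median of -0.07. The other sensor gene with an unadjusted p below 0.05 was Or51e2, a short-chain fatty acid receptor, at 574 ± 34.2 (penk-/-) and 473 ± 59.3 (penk+/+, SD, n = 4 each). Its adjusted p was 0.438 with limma.

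All 20 transcription factors of the endocrine lineage were tested, 11 higher and 9 lower, with a median of 0.03. Sox4, which acts in early endocrine progenitors and in many other cells, had 1462, 1437, 1705 and 1513 in penk-/- and 1199, 1364, 1229.6 and 1217 in penk+/+ chimeras. The groups did not overlap, and the log2 difference was 0.29 ± 0.074 (SE), with an adjusted p of 0.341. Neurog3, the factor that commits progenitors to the endocrine fate, had 33.3, 30.9, 29.8 and 25.4 in penk-/- and 16.2, 19.97, 20.4 and 29.2 in penk+/+ chimeras. Its log2 difference was 0.48 ± 0.226 (SE), it overlapped through penk+/+ 4, and its adjusted p was 0.538. Neurog3 was named after its values were seen. The later factors Insm1 (-0.09), Pax6 (-0.21), Rfx6 (-0.22) and Nkx2-2 (-0.12) had log2 differences of the opposite sign, and none passed the test. Foxa1 was the most abundant of the list, with a mean of 3311.

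Of the 20 genes of granules and hormone processing, all tested, 8 were higher and 12 lower, with a median of -0.07. The most abundant was Pam, the enzyme that amidates peptide hormones, at 9537 ± 408 (penk-/-) and 9708 ± 788 (penk+/+, SD, n = 4 each). Syt7, a calcium sensor of granule release, was at 2239 ± 215 and 2772 ± 425, with an unadjusted p of 0.0250 and an adjusted p of 0.453 with limma. Among the other hormones, Guca2a, the guanylin gene, was the most abundant, at 13755 ± 3636 and 11299.9 ± 2389. Ppy, a relative of Pyy expressed in the colon, was at 205 ± 50.6 and 232 ± 47.3. Ghrl was low, with 2.21 to 9.96. Mboat4, which acylates ghrelin, was at 11.8 ± 4.54 and 20.6 ± 5.56, with an adjusted p of 0.501. Of the 14 genes of this list 10 were found and 8 tested, with a median of 0.02.

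Of 27 receptors and clearance genes for these hormones 26 were found and 22 tested, 5 higher and 17 lower in penk-/-, with a median of -0.18. The epithelial list had a median of -0.15 and the list of smooth muscle genes, led by Myh11, a median of 0.07. Sstr3, a somatostatin receptor, was at 73.7 ± 12.3 in penk-/- and 105 ± 19.0 in penk+/+ chimeras, a log2 difference of -0.50 (unadjusted p = 0.0214 and adjusted p = 0.450 with limma). It and Slc6a4 were the genes of the list with an unadjusted p below 0.05. Glp1r was at 13.2 ± 3.33 and 19.1 ± 5.52, whereas Glp2r, the receptor of the growth-promoting peptide of L cells, was at 620.7 to 694 in penk-/- and 550.1 to 817 in penk+/+ chimeras. The neighbours of endocrine cells in the epithelium, 10 goblet and tuft cell genes led by Fcgbp, had a median of -0.01, with 5 higher and 5 lower. Cldn3, a tight junction gene of the epithelial list, was lower in every penk-/- mouse (6409 to 8815) than in every penk+/+ mouse (9022 to 11200), with a log2 difference of -0.35 and an adjusted p of 0.402. With the epithelial mean, to which it belongs, as a covariate it was -0.23. Without overlap, 2.74% of all genes tested were lower in penk-/-. Spink1, a trypsin inhibitor of the accessory gland list that the colon also expresses, had a log2 difference of -0.37 (adjusted p = 0.488). It was -0.19 with the epithelial mean as a covariate and -0.24 without penk+/+ 1, where its unadjusted p was no longer below 0.05.

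**Figure D5:**
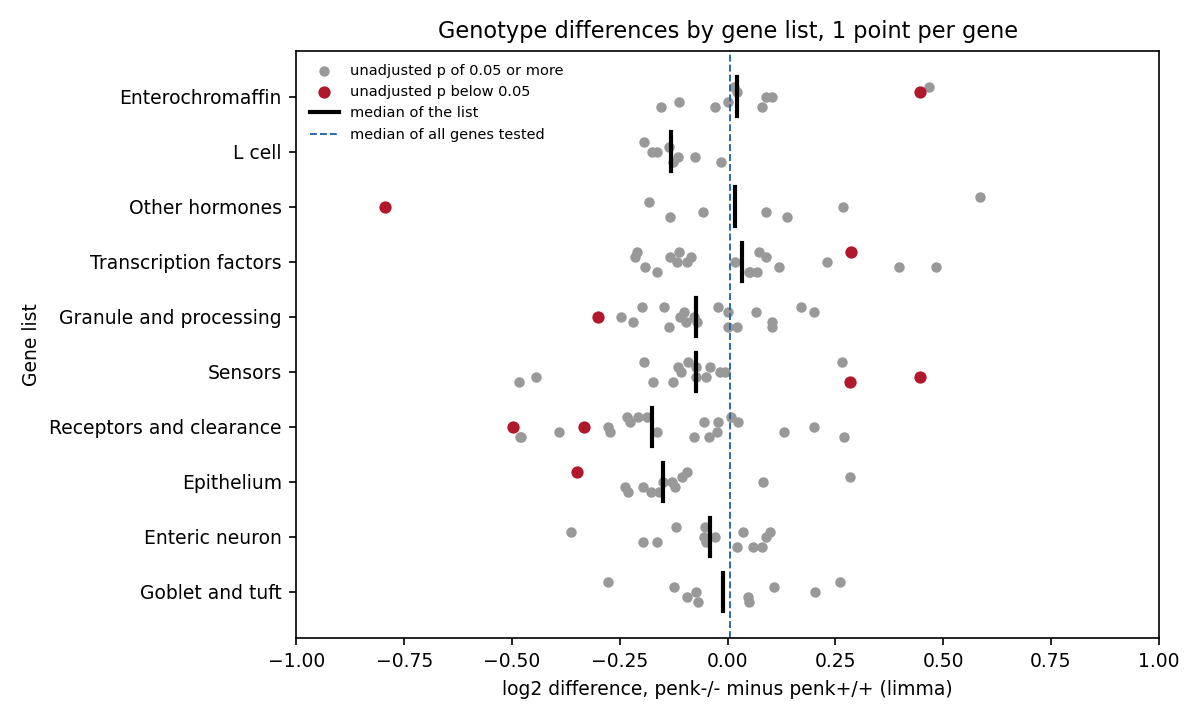
Genotype difference on the log2 scale for each tested gene of 10 lists, with black bars for the median of the list, red points for an unadjusted p below 0.05 and a dashed line for the median of all genes tested, 0.01. Medians lie between -0.18 for receptors and clearance genes and 0.03 for transcription factors, and no red point has an adjusted p below 0.05.

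The tested genes outside the lists whose pattern over the 8 libraries was most like that of the enterochromaffin mean were Kcnc1 (r = 0.96), Prkar2a (0.95), H3f3a (0.95), Galk2 (0.95) and Fgfbp1 (0.94). Kcnc1 encodes a voltage-gated potassium channel and had a mean of 64.7 normalized counts. H3f3a has near-identical copies in the genome, so that its counts are uncertain. Those most like the L cell mean were 1300014J16Rik (0.97), Aadac (0.96), Ndufv1 (0.96), Gdpgp1 (0.95) and Gm57301 (0.95), of which the first and the last are long noncoding RNAs. They were picked as the highest among 19127 genes over 8 libraries, so that high values of r were bound to be found. Without penk-/- 3, r was 0.98 for Kcnc1 and 0.92 for 1300014J16Rik.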

How the data were processed

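RNA of colonic biopsies from 4 penk-/- and 4 penk+/+ chimeras was sequenced by the authors as stranded, paired-end poly-A libraries and mapped to GRCm39 (Ensembl 107 genes) with STAR 2.7.8a, which also gave the counts. The deposited values are a signal, counts per gene divided by a size factor per library (DESeq2 1.30.0, per the submitters' processing notes), with 1 column per mouse. A step per library, of which 100% of its values were multiples (tolerance 0.1 read), gave the read totals. For penk-/- 1 the step was 1.01, so close to 1 that a check for whole reads did not accept it, and its total is less sure. Libraries held 33.1 M to 50.7 M reads. Whether counting error or the spread between mice limited the precision of a gene was not tested. Gene names came from GENCODE M39 (25776 of 26008 identifiers matched).

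Genotypes were compared with limma 3.58.1 (R 4.3.3, moderated test with an intensity trend) after taking log2(value + 1), over 19127 genes with a mean of at least 10 and with Benjamini-Hochberg adjustment. Folds on this scale understate changes of low genes. Single genes were also compared by exact permutation, with all 70 assignments enumerated (numpy 2.4.6). The replicates are separate mice. The 10 genes, the lists and the tests were chosen with earlier results of these data known. Genes named are the 10 genes, the genes of other lists with an unadjusted p below 0.05, the most abundant gene of each list and the 5 nearest in pattern, and a few others given as values to describe a list were named after their values were seen. The test was checked on simulated counts: 70% of the genes given a log2 change of 1 were recovered, and 86% at a change of 2, with 5 false calls among 19125 genes. Alternatives were a pseudocount of 0.1 or 8, a filter at a mean of 50 or none, no trend, quantile normalization, the replicate block, Pbsn or the epithelial mean as a covariate, the libraries with most Pbsn left out, each replicate left out, and, added after the data were seen, voom on the recovered reads. The planned count tests were not run because of the doubt about penk-/- 1.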

Additional observations from a re-analysis of the deposited data

Results flagged for a closer look

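Within each genotype, 22 groups of 4 mice were examined for a mouse far from the others (the 10 genes and the balance, in both genotypes), and 1 was marked. Neurod1 was lowest in penk+/+ 3, at 105 normalized counts against 121 to 123 in the other penk+/+ mice, a gap of 0.888 of the range of the group, beyond the 95% limit of Dixon for 4 values. Chance marks about 1 in 20 such groups.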

How the results depend on the processing

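Across 19 alternatives, 0 of the endocrine genes were called at adjusted p below 0.05, and Chgb, Tph1 and Insl5 kept their direction in all of them, but not their size. When single mice were left out, Chgb (0.10) ranged from 0.025 (without penk-/- replicate 1) to 0.21 (without penk-/- replicate 3), Tph1 (0.08) from 0.034 (without penk+/+ replicate 4) to 0.16 (without penk-/- replicate 3) and Insl5 (-0.17) from -0.26 (without penk-/- replicate 1) to -0.10 (without penk-/- replicate 3). Small differences turned sign. Chga was between -0.072 and 0.10 when single mice were left out, with -0.072 without penk-/- replicate 1, -0.030 without penk-/- replicate 2 and -0.020 without penk+/+ replicate 2. Gcg was 0.016 without penk-/- 3 and penk+/+ 4 and 0.012 with the epithelial covariate, and between -0.078 and 0.046 when single mice were left out, being positive without penk-/- replicate 3 (0.046) or 4 (0.026) and without penk+/+ replicate 2 (0.0092) or 3 (0.022). Pyy was 0.0089 with the epithelial covariate and between -0.15 and -0.0023 when single mice were left out. Sst became 0.044 without penk+/+ replicate 1 (range -0.29 to 0.044) and Neurod1 -0.042 without penk-/- replicate 1 (range -0.042 to 0.16, and 0.19 with the epithelial covariate). The number of the endocrine genes at unadjusted p below 0.05 was 0, and 0 to 1 when single mice were left out (Insl5, without penk-/- replicate 1). Over all genes, 0 were called at adjusted p below 0.05 (1842 at unadjusted p below 0.05), 1 with quantile normalization, 1 with the epithelial covariate, 1 with the replicate block, and 0 to 6 when single mice were left out, with 6 without penk-/- replicate 1. With the replicate block 2938 genes had an unadjusted p below 0.05. The numbers do not pair the mice (correlations of same-numbered deviations 0.15, -0.04, -0.32 and -0.16), and the block changed no call of the endocrine genes. The balance between enterochromaffin and L cell genes ranged from 0.11 to 0.15 over its 12 alternatives. The 10 other listed genes with an unadjusted p below 0.05 kept their direction in every alternative run for them. Of these, Sox4 and Cldn3 stayed below 0.05 in all 19, Trpa1 and Cma1 in 18, Or51e2 in 17, Sstr3 in 15, Slc6a4 and Syt7 in 14, Spink1 in 13, and Mboat4 in 9 of the 18 run for it. The cause of these shifts was not tested. Cck and Nts had few reads, at 2 to 9 per library. The planned edgeR and DESeq2 tests were not run.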
